A study of Mus musculus with 25 samples.

Results

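Back skin of mice aged 5 months was compared with back skin of mice aged 9 weeks on short-oligonucleotide expression arrays. The comparison took the 3 arrays titled with each age, 6 of the 25 arrays of the series, and every probe set other than the 66 controls. Of these 12422 probe sets, 8835 were bright enough to test. Each array measured total RNA of whole back skin and is labelled as 1 mouse (mice 1, 2 and 3 at each age). The series followed mouse skin through the hair cycle from postnatal day 1 to 1 year. No genotype, treatment or surgery is named for any group. Strain, sex, the time of day of sampling and the scanner stay unstated in the labels used here.

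Hair follicles grow in phases called anagen, regress in catagen and rest in telogen, and then start again. During growth, the matrix cells of the follicle bulb divide and build the hair shaft from keratins and keratin-associated proteins, inside a sheath with keratins of its own. The first cycles run in step over the whole back, and in adult mice patches of skin follow their own timing. Adult back skin also holds a dermal fat layer that thickens and thins with the cycle, and a thin sheet of striated muscle, so a whole-skin sample mixes many cell types. In such bulk samples, fewer cells of a type and less RNA per cell cannot be told apart.

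Markers of the main compartments of skin were bright on all 6 arrays. The epidermal keratin Krt10 lay between 13735.6 and 25801.6 intensity units on the 6 arrays, the matrix proteoglycan gene Dcn between 16506 and 18072.2, the fat hormone Adipoq between 5987.1 and 10675.1, and the muscle actin Acta1 between 23659.1 and 41270.7. Within an age, the Pearson correlation of log2 intensities was 0.897 to 0.941 at 9 weeks and 0.928 to 0.96 at 5 months. Array medians were alike, 197.8 to 206.3 units at 9 weeks and 201.5 to 215.5 at 5 months. The highest intensity on an array was 55898.6 to 67622.9 at 9 weeks and 25924.7 to 32416.4 at 5 months, so the ages differed at the bright end of the scale. The ratio of the 3′ to the 5′ control probe sets was 1.02 ± 0.07 against 0.9 ± 0.03 for Gapdh and 1.05 ± 0.1 against 1.24 ± 0.06 for Actb (9 weeks against 5 months, SD, n = 3). The number of arrays limits the precision.

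Mice of the same age were in different hair states, at both ages in the same proportion. Hair shaft genes were high in 1 mouse of 3 at 9 weeks (mouse 3) and in 1 mouse of 3 at 5 months (mouse 2), and low in the other mice. Krtap6-2, a keratin-associated protein of the hair shaft, measured 92.5, 138.5 and 7360.9 units in mice 1, 2 and 3 at 9 weeks and 94.1, 4140.9 and 81.2 units at 5 months. Krt83, a hair shaft keratin, measured 37.3, 39 and 6167.1 units at 9 weeks and 35.7, 3915.7 and 39.8 at 5 months. In both genes the high mouse of each age stood far above the other mice, and the low mice of both ages overlapped.

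Genes of the inner root sheath, which moulds the growing hair, split the mice in the same way. Krt71 measured 102.2, 63 and 9820.9 units at 9 weeks and 116.4, 13350.4 and 248.6 at 5 months. Krt27 measured 138.7, 87.9 and 11173.7 units at 9 weeks and 111.7, 10961.4 and 132.6 at 5 months. Msx2, a transcription factor of the hair matrix and shaft, measured 7.9, 10.4 and 375 units at 9 weeks and 17.9, 744.6 and 20.4 at 5 months. The 4 low Msx2 values lay under the floor of 32.7 units, below which intensities were treated as equal.

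The split ran through nearly all members of the shaft list. All 19 hair shaft genes tested were highest in mouse 3 at 9 weeks, and 18 of them were highest in mouse 2 at 5 months. Of the 9 inner root sheath genes, 8 were highest in both of these mice. Over all 8835 probe sets, 2950 were highest in mouse 3 at 9 weeks, 2487 in mouse 2 at 5 months and 1227 in both. Between the 2 mice with shaft genes, the 9 week mouse had the higher value in 18 of 19 shaft genes and the 5 month mouse in 1. In pigment cell genes the order was the other way, with the 5 month mouse higher in 10 of 12. Tyrp1, an enzyme of melanin synthesis, measured 20.1, 35.9 and 362.2 units at 9 weeks and 159.8, 654.3 and 105.3 at 5 months. From 9 weeks to 5 months this probe set changed by 1.56 on the log2 scale, and its other probe sets by -0.25 and 0.03. With 1 mouse with shaft genes at each age, the orders between these 2 mice have no replicate.

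Shh, Lef1 and Foxn1 separated the mice less than Msx2 did. Foxn1 was still highest at both ages in the mouse with shaft genes. Shh, a growth signal of the follicle, measured 36.1, 126.8 and 235 units at 9 weeks and 134.7, 124.7 and 128.4 at 5 months. Lef1, a transcription factor of the Wnt pathway in the matrix, measured 776.4, 559.8 and 700.8 units at 9 weeks and 726.6, 950.7 and 787.7 at 5 months. Foxn1, needed for shaft differentiation, measured 34.5, 128 and 228.5 units at 9 weeks and 81.9, 168 and 30.5 at 5 months. For these 3 genes the mice without shaft genes came closer to those with them. Fgf5, a signal that ends hair growth, did not pass the filter on dim probe sets, with 7.1 to 13.1 units on the 6 arrays.

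Dividing cells followed the shaft genes in part. Mki67, a marker of dividing cells, measured 82, 151 and 393.3 units at 9 weeks and 160.7, 379.1 and 194.1 at 5 months, with the highest value of each age in the mouse with shaft genes. Of 83 cell division genes tested, 40 were highest in mouse 3 at 9 weeks and 45 in mouse 2 at 5 months, 25 of them in both. Epidermal differentiation genes, the proteins of the outer skin and hair canal, were highest in these mice for 28 of 40 and 32 of 40. For the 36 macrophage and dendritic cell genes, 1 was highest in mouse 3 at 9 weeks and 5 in mouse 2 at 5 months.

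Sex markers were split along the same line as the hair state. Xist, the RNA of the inactive X chromosome in females, measured 284.3, 732.1 and 5.5 units at 9 weeks and 892, 8.9 and 861.2 at 5 months. Eif2s3y, a Y-linked gene, measured 4.7, 4.1 and 235.9 units at 9 weeks and 2, 293.1 and 5.3 at 5 months. At both ages the mouse with shaft genes was the mouse with Eif2s3y, so sex and hair state cannot be told apart within these ages. As 2 mice of 1 kind and 1 of the other stood at each age, the comparison of the ages was balanced for both. At 1 year all 4 arrays had Eif2s3y, and Krtap6-2 was 40.9 units on 1 of them and 6510.3 to 21325.6 on the other 3.

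**Figure D1:**
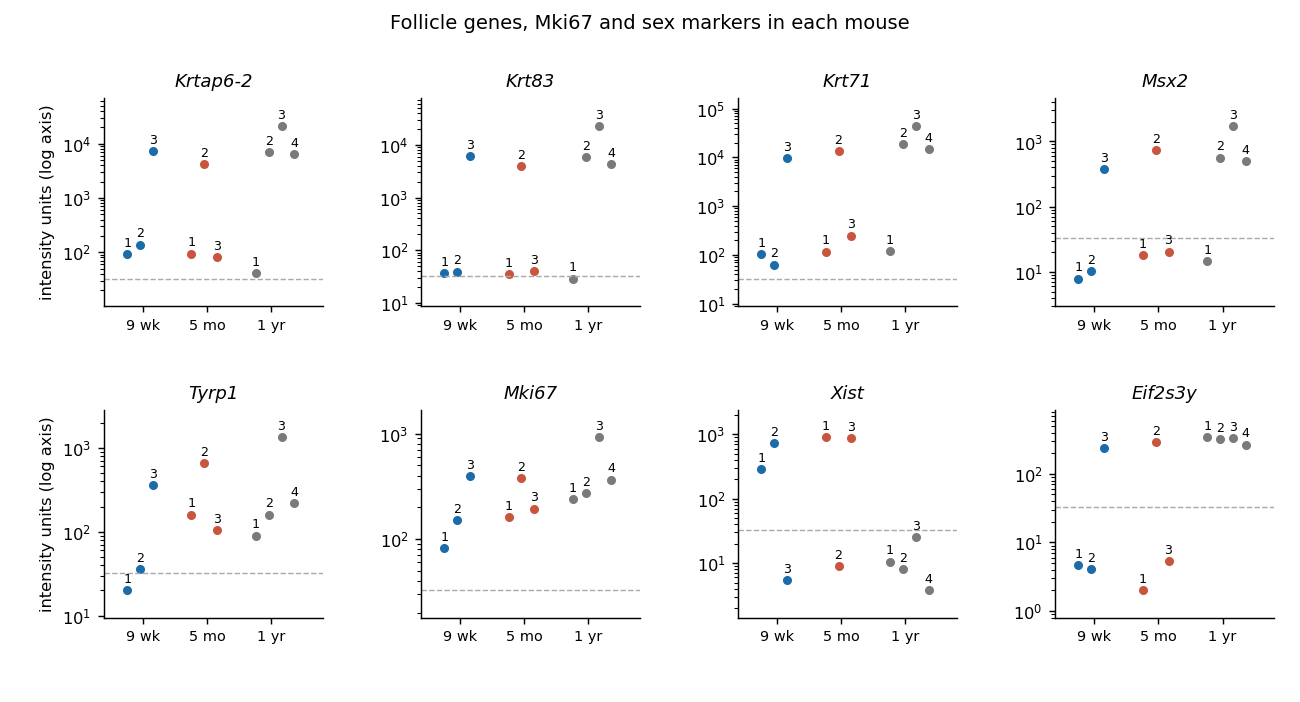
Intensity (units, log axis) of 8 genes in each mouse at 9 weeks, 5 months and 1 year; each point is 1 array with its mouse number, and the dashed line is the floor of 32.7 units. At 9 weeks mouse 3 and at 5 months mouse 2 hold the high values of Krtap6-2, Krt83, Krt71 and Msx2, and are the mice with Eif2s3y and without Xist.

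None of the hair shaft or inner root sheath genes passed the test between the ages. The test was limma on log2 intensity, with 10 arrays (9 weeks, 5 months and 1 year) sharing 1 estimate of the spread and a threshold of 0.05 on the Benjamini-Hochberg adjusted p. The 19 shaft genes had a median log2 change (5 months minus 9 weeks) of -0.21, and the 9 sheath genes one of 0.08, beside 0.02 over the 6569 genes tested. Their spread was wide: the standard error was 2.47 for Krtap6-2 (change -0.53) and 2.6 for Krt71 (change 0.87). The median SD of log2 values over the 3 mice was 0.28 at 9 weeks and 0.22 at 5 months for all probe sets. Probe sets with an SD over 2 numbered 41 at 9 weeks and 44 at 5 months, 35 of them in both, and 33 of these 35 were highest in the mouse with shaft genes at both ages. Among these were the sheath keratin Krt25, with an SD of 4.8 at 9 weeks and 4.63 at 5 months, and the shaft gene Krtap8-1, with 5.07 and 3.69.

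Across all genes limma called a small share between the 2 ages, which is not a measure of the share that differed. Of 8835 probe sets, 380 (4.3%) were called by limma, 209 (2.37%) higher and 171 (1.94%) lower at 5 months. Their changes were at least 0.42 on the log2 scale, and 108 higher and 64 lower probe sets differed by more than 1. By gene, 154 rose and 135 fell of 6569 tested, and the arrays of the ages did not overlap for any of them. Without overlap were 31.4% of all probe sets, 16.5% higher and 14.9% lower at 5 months. With each array centred on its median, limma called 116 higher and 194 lower, a share of 37.4% higher against 55% as deposited. The number called changed when 1 array was left out, which also makes the fit smaller. It was 11, 3 and 194 without mouse 1, 2 or 3 of 9 weeks. Without mouse 1, 2 or 3 of 5 months it was 2, 3 and 11. Without mouse 1, 2, 3 or 4 of 1 year it was 448, 170, 669 and 85. At an unadjusted limma p under 0.05, leaving out a mouse of 9 weeks or 5 months gave 1319 to 1868 probe sets, against 1938. Given the hair shaft mean of each array as a covariate, limma called 554 probe sets, among them all 380. Given the Xist state as a covariate, it called 293, and 262 of these were among the 380. None of the 289 called genes passed in all 25 alternatives run, so each call below was lost in at least 1 of them. The fits with the mouse number as a replicate block called 0 probe sets, so no gene could have passed in all 25.

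**Figure D2:**
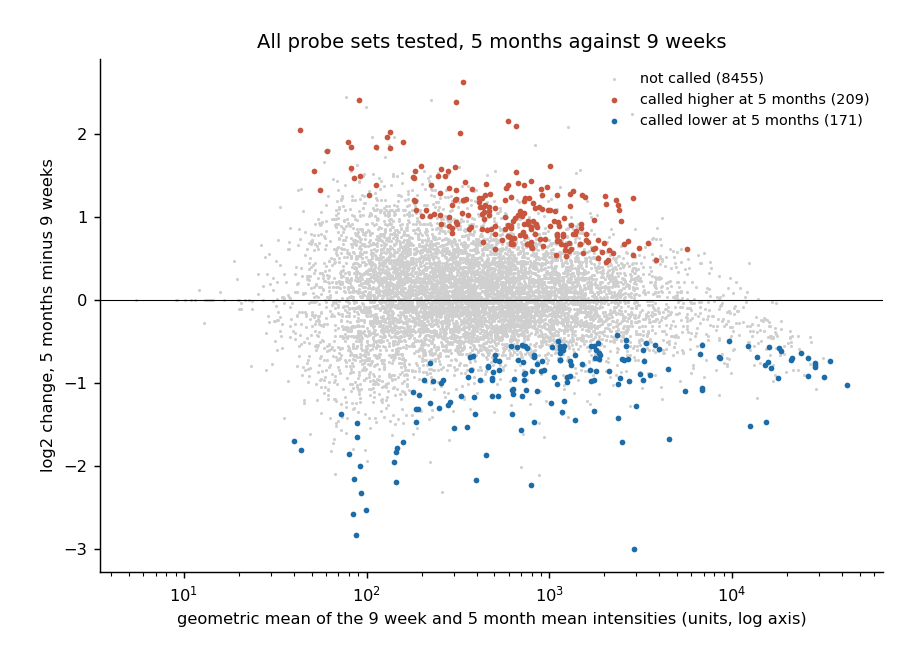
Each point is 1 of 8835 probe sets, with the geometric mean of its 9 week and 5 month mean intensities (units, log axis) against its log2 change, 5 months minus 9 weeks. The 209 probe sets called higher and the 171 called lower are coloured; at the bright right end the called points lie below 0.

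The bright end of the scale moved down as a whole at 5 months. Among the 123 probe sets with a mean level over 8192 units, the median log2 change was -0.43, and 23 were called lower and 0 higher. From 4096 to 8192 units the median was -0.18, and at lower levels the medians lay between -0.03 and 0.12. After quantile normalisation, which gives all arrays the same distribution, the medians of the 2 brightest classes were 0.01 and 0.06. Equal distributions bring the medians of such classes near 0 whatever moved them. The ages 5 months and days 1, 17 and 23 all had highest intensities of 22033.5 to 36049 units, and the ages 9 weeks, 1 year and days 6 and 14 had 41699.8 to 78877. Of the probe sets called higher at 5 months, 188 of 209 (90%) were also higher on days 1, 17 and 23 than on days 6 and 14. The same held for 45 of 171 (26.3%) called lower and for 5217 of 8835 (59%) in all. Over all 8835 probe sets, this difference between the young ages and the change at 5 months had a Pearson r of 0.227. The young ages were grouped by their highest intensities. Those young arrays enter neither age compared here, and their ages differ too. The labels used here do not say whether these sets of arrays were processed apart, and for 5 months and 9 weeks such a difference cannot be told apart from age.

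**Figure D3:**
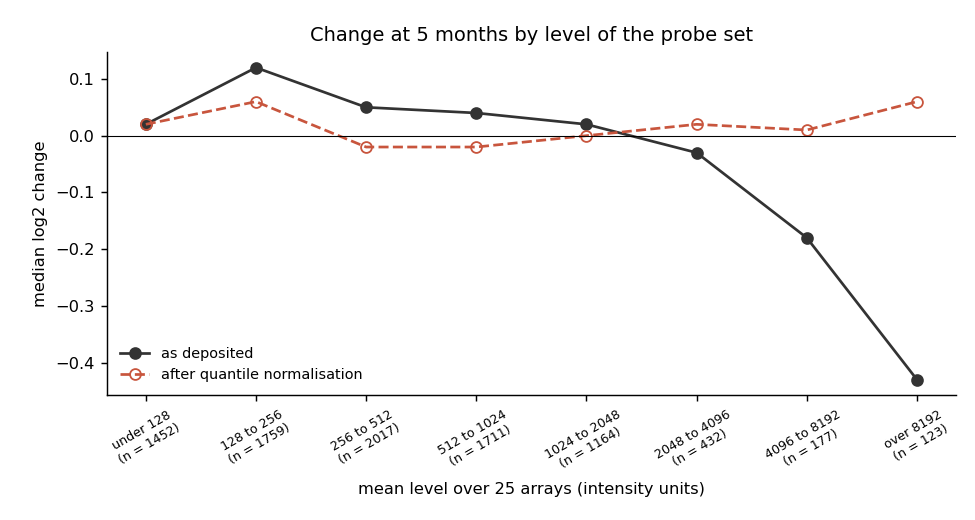
Median log2 change (5 months minus 9 weeks) of probe sets in classes of mean level over 25 arrays, as deposited and after quantile normalisation; n is the number of probe sets in a class. As deposited, the median falls to -0.43 above 8192 units, and after quantile normalisation it is 0.06 there.

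Some genes of fat cells fell at 5 months. Of 34 genes of the adipocyte list tested, limma called 4 lower and none higher, against 1.94% lower among all probe sets, and 27 of the 34 changes were negative (median -0.43, and -0.4 after quantile normalisation). Thrsp, a nuclear protein that promotes fatty acid synthesis, measured 10646, 7298.8 and 6709.3 units at 9 weeks and 759.7, 1216.2 and 1096.3 at 5 months. It had the greatest decrease of all genes called, by 3 ± 0.59 on the log2 scale (SE, limma adjusted p = 0.0292), and log2 changes below are likewise given with the SE of the fit. The ages did not overlap, and at 1 year the 4 arrays ranged from 588.7 to 4871.6.

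Cidec, a protein of the lipid droplet surface, measured 2720.6, 2593.9 and 1611.3 units at 9 weeks and 828.4, 721.7 and 933.5 at 5 months, a log2 change of -1.45 ± 0.31 (limma adjusted p = 0.0371). Pnpla2, the lipase that starts the breakdown of stored fat, measured 7132.8, 10858.5 and 6633.1 units at 9 weeks and 3484, 3654.1 and 4085.2 at 5 months, a change of -1.1 ± 0.27 (limma adjusted p = 0.049). Cebpb, a transcription factor of early fat cell differentiation that other cells use too, changed by -0.61 ± 0.14 (limma adjusted p = 0.0463). After quantile normalisation Pnpla2 (-0.94, limma adjusted p = 0.0627) and Cebpb (-0.54, limma adjusted p = 0.0581) missed the threshold.

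Markers that define fat cells did not all lie lower. Adipoq measured 5987.1, 10675.1 and 6070.5 units at 9 weeks and 7972.4, 6050.1 and 7604.1 at 5 months, and the ages overlapped (change -0.03). The fatty acid carrier Fabp4 measured 384.6, 327.8 and 193.6 units at 9 weeks and 513.3, 192.4 and 499.2 at 5 months (change 0.34). Lep, the hormone leptin, named here after its values were seen, measured 5005.3, 3458.4 and 2139.3 against 1428.1, 2292.3 and 2832.9 units (change -0.67). None of these 3 was called. The brown fat list had 6 genes tested, none called, with a median of -0.44.

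Called genes that answer to glucocorticoids and metals fell at 5 months. Of 27 genes in the list of steroid, retinoid and vitamin D response, limma called 3 lower and none higher (median -0.3): Fkbp5, Mt1 and Mt2. Of all probe sets, 1.94% were called lower. Fkbp5, a co-chaperone of the glucocorticoid receptor that the receptor itself induces, measured 6155.3, 4118.3 and 3438.4 units at 9 weeks and 1147, 1716.8 and 1264.2 at 5 months. Its log2 change was -1.71 ± 0.35 (limma adjusted p = 0.0325), and the ages did not overlap. The steroid-induced kinase gene Sgk1 was not called, with 2307 to 2617.8 units at 9 weeks and 2214 to 2534.2 at 5 months (change -0.06).

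The metallothioneins, small proteins that bind zinc and copper, fell together. Mt1 measured 11938.9, 6794.9 and 5855.9 units at 9 weeks and 1842.6, 3457.8 and 2251.3 at 5 months, a log2 change of -1.68 ± 0.38 (limma adjusted p = 0.0415). Mt2 measured 30119.7, 18728.1 and 15921.7 units at 9 weeks and 6371.6, 9032.2 and 6678.6 at 5 months, a change of -1.52 ± 0.3 (limma adjusted p = 0.0292). In both genes mouse 1 was the highest at 9 weeks and mouse 2 at 5 months, and the ages did not overlap. Mt1 and Mt2 were also the called genes among 52 of the antioxidant and xenobiotic response list (2 lower, none higher, median -0.22). They made up 3.85% of that list, beside 4.3% called among all probe sets.

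The 300 bases around the starts of Mt1 and Mt2, neighbours on the chromosome, are shown because these genes fell together and the metal response element is the best known control sequence of their family. They run from 250 bases before to 50 after the start, 5′ to 3′ on the gene's strand, and come from RefSeq in build GRCm38.p6: chr8:94178839-94179138 for Mt1 and chr8:94172368-94172667 for Mt2, both on the plus strand. Capitals mark each match to the core of that element, searched as TGCGCNC or TGCACNC on both strands.
Mt1: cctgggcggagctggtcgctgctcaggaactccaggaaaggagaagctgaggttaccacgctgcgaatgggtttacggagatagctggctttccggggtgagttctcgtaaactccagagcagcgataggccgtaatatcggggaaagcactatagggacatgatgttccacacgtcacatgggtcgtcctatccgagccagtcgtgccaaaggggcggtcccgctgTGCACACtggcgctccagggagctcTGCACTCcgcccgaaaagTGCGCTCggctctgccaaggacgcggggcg
Mt2: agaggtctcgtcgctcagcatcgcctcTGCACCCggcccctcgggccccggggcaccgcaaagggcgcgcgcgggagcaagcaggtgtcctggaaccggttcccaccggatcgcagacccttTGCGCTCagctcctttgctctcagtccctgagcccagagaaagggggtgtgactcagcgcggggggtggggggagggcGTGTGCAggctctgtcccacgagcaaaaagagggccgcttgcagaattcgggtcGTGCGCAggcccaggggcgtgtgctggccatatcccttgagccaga
Mt1 held 3 matches and Mt2 held 4. At least 1 match was present in 25.7% of 32851 RefSeq promoters of the same length, and at least 3 in 1.97%. A match is a description of these letters, not a site of binding measured here.

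Map3k6, a stress-activated kinase, was outside the lists and fell from 1733.5, 1414.6 and 1842.3 units to 280.7, 582.9 and 267.7, a log2 change of -2.23 ± 0.46 (limma adjusted p = 0.0337). At 1 year it ranged from 709.7 to 3005 units. In the young ages, the mean log2 level of days 1, 17 and 23 minus that of days 6 and 14 was -1.99 for this gene. For Thrsp, Spock2 and Fkbp5 that difference was positive, at 1.52, 2.53 and 1.31, opposite in sign to their change at 5 months. Most called probe sets shared the sign. The difference was positive for 188 of 209 called higher and for 45 of 171 called lower. Among named genes sharing the sign, it was -0.93 for Mt2, -0.57 for Cyc1, -0.61 for Uqcrc1 and -0.68 for Ndufa9. It was 1.7 for Dnajb9, 1.1 for Kdelr3, 1.26 for Irgm1 and 1.31 for Gbp3. Cidec (1.29) and Hmgb2 (-0.21) were also opposite in sign.

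Genes of the clock differed in opposite directions. Of 19 circadian clock genes tested, limma called Nr1d1 higher and Cry1 lower (2.37% and 1.94% of all probe sets). The list had a median of -0.49. Nr1d1, a nuclear receptor that represses clock genes, measured 462.3, 381.3 and 264.7 units at 9 weeks and 1105.5, 727 and 1028.2 at 5 months, a log2 change of 1.38 ± 0.32 (limma adjusted p = 0.0432). Cry1, a repressor of the clock that peaks at another phase of the day, measured 1042.7, 982.3 and 712.6 units at 9 weeks and 401, 455.6 and 411.4 at 5 months, a change of -1.09 ± 0.24 (limma adjusted p = 0.0385). The ages did not overlap in either gene.

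Other clock genes, 3 of them named here after their values were seen, gave values that did not pass. Dbp, an output gene of the clock, measured 205, 331.3 and 299.8 units at 9 weeks and 1022.8, 340.3 and 793.4 at 5 months (change 1.25, limma adjusted p = 0.134). Per1 measured 1113.1, 1034.2 and 1061.8 against 744.4, 786.8 and 734.5 units (change -0.5, limma adjusted p = 0.513). Tef measured 3172.6, 3557.4 and 2469.5 against 2019, 1323.8 and 2047.2 units (change -0.78, limma adjusted p = 0.257). These 3 genes, picked with their values known, did not overlap between the ages, and neither did 31.4% of all probe sets. Of the 19 clock genes tested, 5 were higher without overlap (16.5% of all probe sets) and 9 lower (14.9%). The time of day at which skin was taken was not analysed here.

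Some genes of energy metabolism fell at 5 months. Of 63 genes of oxidative phosphorylation, limma called 7 lower and none higher (1.94% of all probe sets were called lower), 30 were lower without overlap (14.9% of all), and the median was -0.32 (-0.28 with 6 called lower after quantile normalisation). Cyc1, cytochrome c1 of complex III, measured 9443.8, 10693.7 and 9697.4 units at 9 weeks and 4532.3, 5411.4 and 4123 at 5 months, a log2 change of -1.09 ± 0.16 (limma adjusted p = 0.0169). Its other probe set changed by -0.6 (limma adjusted p = 0.154). Uqcrc1, a core subunit of the same complex, measured 5511.8, 6367.4 and 5972.1 against 3197.7, 3756.9 and 3097 units, a change of -0.83 ± 0.14 (limma adjusted p = 0.023).

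The other 5 called members included 4 subunits of complex I, Ndufa9 (-0.98), Ndufb6 (-0.74), Ndufa8 (-0.66) and Ndufv1 (-0.65), and Atp5e of ATP synthase (-0.96). In fatty acid oxidation and the citrate cycle, 2 of 35 genes were called lower (1.94% of all probe sets) and none higher (median -0.12). They were Echs1, an enzyme of fatty acid oxidation, at -0.92 ± 0.16 (limma adjusted p = 0.023), and Fh1, fumarase, at -0.56 ± 0.14 (limma adjusted p = 0.0486). Echs1 measured 1651.8, 1703.2 and 1987.2 units at 9 weeks and 846, 1051.3 and 924.1 at 5 months. In glycolysis, 1 of 20 genes was called lower (1.94% of all probe sets), and the list had a median of -0.46. The gene was Pfkl, the liver-type phosphofructokinase, at -0.55 ± 0.13 (limma adjusted p = 0.0487).

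Skeletal muscle genes had the lowest median of the 47 lists, -0.69, with 46 of 52 changes negative, 30 of the 52 lower without overlap (14.9% of all probe sets), and none called. Acta1, skeletal actin, measured 41270.7, 40020.2 and 39560.4 units at 9 weeks and 24115.3, 23659.1 and 26907.3 at 5 months (change -0.7, limma adjusted p = 0.173). Myh4, a fast myosin heavy chain, measured 28319.1, 35926.2 and 37461.3 against 19194.6, 21088.9 and 14552.3 units (change -0.9, limma adjusted p = 0.163). Atp2a1, the calcium pump of fast fibres, measured 44550.7, 42334.6 and 39267.2 against 19526.5, 21238.4 and 18964.6 units (change -1.08, limma adjusted p = 0.0598). The mean log2 level of the list was 11.03 to 11.27 in the mice of 9 weeks and 10.44 to 10.6 in those of 5 months.

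These muscle genes lie at the bright end, and their changes depended on the normalisation. After quantile normalisation the list's median was -0.46 and 1 member was called lower, while Acta1 changed by 0.12 and Atp2a1 by -0.29. The 1 year arrays, which share the estimate of the spread, ranged from 23681.9 to 55307.5 units for Acta1. The muscle list and the oxidative list both had negative medians, and the part of muscle in the oxidative result was not tested.

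Cytoplasmic ribosomal protein genes were called lower in 7 of 26 (1.94% of all probe sets), none higher, with a median of -0.41. All 7 lost the call after quantile normalisation (median 0.04). Rpl41, the brightest probe set on each of the 6 arrays, measured 67622.9, 59048 and 55898.6 units at 9 weeks and 25924.7, 31315.4 and 32416.4 at 5 months, a log2 change of -1.03 ± 0.16 (limma adjusted p = 0.018), and 0 after quantile normalisation. Rps24, Rplp0 and Rps18 changed by -0.92, -0.81 and -0.7, and by -0.17, -0.06 and -0.15 after quantile normalisation. The other 3 called were Rps28 (-0.7), Rps10 (-0.69) and Rps3 (-0.57). Apoe, a lipid carrier and the called gene among 17 of the sebaceous gland and skin lipid list, changed by -0.79 and likewise by -0.02. Quantile normalisation gives the brightest probe set of every array the same value, so the change of 0 for Rpl41 was fixed by the method. Whether the scale or these transcripts moved was not tested.

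Lor, the main protein of the cornified envelope of the epidermis, was as bright but kept its change. It measured 26596.8, 26532.5 and 23356.4 units at 9 weeks and 9472.9, 10345.7 and 7841.1 at 5 months, a log2 change of -1.47 ± 0.22 (limma adjusted p = 0.0169). At 1 year it ranged from 23722.1 to 39232.6 units. Over the alternatives run its change lay between -1.56 and -1.07, and it was called in 18 of 25. It was the called gene among 40 of the epidermal differentiation list (2.5%, median -0.14), beside 1.94% called lower among all probe sets. Krt10, a keratin of the same upper layers, measured 16552.2, 21893.1 and 25801.6 units at 9 weeks and 14473.6, 13980 and 13735.6 at 5 months (change -0.58, limma adjusted p = 0.198). Krt1, its partner keratin, overlapped between the ages, with 2901.6, 4107.4 and 5384.6 against 2950.7, 6139 and 2580 units (change -0.15).

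The greatest increase of a named gene was that of St6galnac4. The gene encodes a sialyltransferase of the Golgi and measured 37.8, 41.9 and 37.4 units at 9 weeks and 234.1, 241.6 and 158 at 5 months, a log2 change of 2.41 ± 0.29 (limma adjusted p = 0.0126). At 1 year it ranged from 27.6 to 48 units. It was dim at 9 weeks, and with the floor at 127.8 units its change was 0.7 (limma adjusted p = 0.0299). Thbs2, a matrix protein that limits vessel growth and shapes collagen fibres, measured 312.2, 305.1 and 218 units at 9 weeks and 1409, 838 and 1567.1 at 5 months, a change of 2.16 ± 0.33 (limma adjusted p = 0.0171). At 1 year Thbs2 ranged from 170.2 to 385.6. In both genes the 5 month values stood above all those of the other adult ages, but not above those of all young ages. St6galnac4 measured 169.2 to 266.9 units on day 17 and 203.2 to 221.7 on day 14, and Thbs2 measured 620.7 to 855.5 on day 23.

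Thbs2 was the called gene among 52 of the list of dermal collagen and matrix, whose median was 0.05. It made up 1.92% of the list, beside 2.37% called higher among all probe sets. The main fibrillar collagens were not called by their brightest probe sets. Col1a1 measured 20027, 20763.7 and 39846.4 units at 9 weeks and 15111.5, 26185.9 and 17102.6 at 5 months (change -0.43). Col3a1 measured 9548, 7500 and 9128 against 8019.7, 11995 and 7700.6 units (change 0.06). The probe sets of Col3a1 disagreed: a dimmer one had means of 464.6 and 1357 units without overlap and was called higher, at 1.43 ± 0.34 (limma adjusted p = 0.0479), and the other changed by -0.3. Acta2, smooth muscle actin, was the called gene among 16 of smooth muscle and pericytes, with 880.4, 1368.1 and 1089.7 units at 9 weeks and 2068.4, 1899.6 and 2043 at 5 months, a log2 change of 0.87 ± 0.17 (limma adjusted p = 0.0292).

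Dnajb9, a chaperone of the endoplasmic reticulum, measured 105.2, 145.6 and 149.4 units at 9 weeks and 991.5, 521.4 and 630.9 at 5 months, a log2 change of 2.39 ± 0.28 (limma adjusted p = 0.0126). Its other probe set changed by -0.22 (limma adjusted p = 0.818), and the average of both by 1.08 (limma adjusted p = 0.0914). Kdelr3, a receptor that returns proteins to the reticulum, measured 135.3, 177.9 and 210.3 against 389.6, 681.7 and 535.4 units, a change of 1.6 ± 0.28 (limma adjusted p = 0.0255), and ranged from 297.3 to 537.7 at 1 year.

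Pdia3, a disulfide isomerase that helps fold class I molecules, was called among the 14 genes of class I antigen presentation. It measured 500.8, 598.7 and 575.3 units at 9 weeks and 1129.7, 885.1 and 1140.7 at 5 months, a change of 0.91 ± 0.2 (limma adjusted p = 0.0415). Xbp1, a transcription factor of the unfolded protein response and of plasma cells, measured 1007.1, 1360.9 and 1334.8 against 2422.6, 1935.6 and 1756.4 units, a change of 0.72 ± 0.18 (limma adjusted p = 0.0492). Xbp1 and Sdc1 were the 2 genes called, both higher, of 21 in the list of B cells and immunoglobulin. Of all probe sets, 2.37% were called higher. Sdc1, a surface proteoglycan of plasma cells that keratinocytes also make, changed by 0.8 ± 0.19 (limma adjusted p = 0.0483). The defining marker Ighm overlapped between the ages, with 2760.2, 2134 and 1115 against 2417.3, 2510.6 and 1839.9 units, and Cd79a measured 69.7, 52.7 and 149.5 against 157.6, 131.7 and 164 units, neither of them called.

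Among immune genes few were called. Of 36 macrophage and dendritic cell genes, limma called 1 higher and none lower (2.37% of all probe sets were called higher). Higher without overlap were 11 of the 36 (16.5% of all probe sets). The list's median of 0.48 was the highest of the 47 lists (0.41 after quantile normalisation). Ccl7, a chemokine that attracts monocytes, measured 54.1, 91.4 and 61.6 units at 9 weeks and 128.2, 313.6 and 337.7 at 5 months, a log2 change of 1.83 ± 0.4 (limma adjusted p = 0.0386), and 0.9 with the floor at 127.8 units (limma adjusted p = 0.143).

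The markers that define macrophages were not called. Adgre1, the F4/80 surface protein, measured 318.1, 135.4 and 110.8 units at 9 weeks and 722.4, 218 and 405.5 at 5 months (change 1.25, limma adjusted p = 0.184). Cd68, a lysosomal protein of macrophages, measured 1212.9, 937 and 600.4 against 2327.8, 1367.9 and 1284 units (change 0.86, limma adjusted p = 0.184). Csf1r, the receptor for their growth factor, measured 2826.9, 2428.1 and 1784.9 against 3407.8, 2129.2 and 1899.2 units (change 0.06). The ages overlapped in Adgre1 and Csf1r, and in Cd68 they did not. Lilr4b, an inhibitory receptor of myeloid cells, was outside the list and rose from 120.5, 175.8 and 180.7 units to 371.3, 613.7 and 380, a log2 change of 1.5 ± 0.29 (limma adjusted p = 0.0292), with 52 to 84.3 units at 1 year.

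Genes induced by interferon gave 2 calls in 31, both higher (2.37% of all probe sets), with a median of 0.31. Irgm1, a GTPase of defence inside cells, measured 61.5, 38.2 and 55.9 units at 9 weeks and 160.2, 119.5 and 144.5 at 5 months, a log2 change of 1.47 ± 0.34 (limma adjusted p = 0.0446). Gbp3, a guanylate-binding protein, measured 291, 270.3 and 277.1 against 803.2, 493.8 and 565.2 units, a change of 1.12 ± 0.25 (limma adjusted p = 0.0415). At 1 year Irgm1 ranged from 29.6 to 71.2 units and Gbp3 from 117.1 to 208.1. Irgm1 was dim, and with the floor set at 127.8 units its change was 0.17 (limma adjusted p = 0.189). It also missed the threshold after quantile normalisation (1.47, limma adjusted p = 0.052).

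Zap70, a kinase of the T cell receptor, was the called gene among 17 of T and NK cells. It measured 125.1, 111.8 and 85.3 units at 9 weeks and 258.8, 618 and 217.2 at 5 months, a log2 change of 1.62 ± 0.39 (limma adjusted p = 0.0482), and was called in 7 of the 25 alternatives. The T cell marker Cd3e overlapped between the ages, with 176.2, 205.8 and 102.6 against 134.2, 88.8 and 207.6 units (change -0.2). Of 13 class II antigen presentation genes none was called (median 0.24). The brightest of these, the invariant chain Cd74, measured 24888.6, 18861.6 and 14411.1 units at 9 weeks and 15290.9, 12256.8 and 17834.6 at 5 months (change -0.34, and 0.19 after quantile normalisation).

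In complement and coagulation, 2 of 20 genes were called, both higher (2.37% of all probe sets), with a list median of 0.08. F2r, the thrombin receptor, measured 378.1, 394.1 and 420.4 units at 9 weeks and 977.5, 942.2 and 547.2 at 5 months, a log2 change of 1 ± 0.22 (limma adjusted p = 0.0398). Its other probe sets changed by 0.08 and 0.78, and the average of all by 0.62 (limma adjusted p = 0.193). Plat, the tissue plasminogen activator, measured 625.1, 661.2 and 562.3 against 1436.5, 1016.4 and 1036.6 units, a change of 0.9 ± 0.2 (limma adjusted p = 0.0381). Plat was also the called gene among 16 of matrix proteases and their inhibitors, and Ccl7 among 30 fibroblast markers and among 30 inflammatory cytokines.

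Of 83 cell division genes, limma called 2 higher and none lower (median 0.22), a share close to the 2.37% called higher among all probe sets. E2f1, a transcription factor that opens the S phase, measured 48, 71.6 and 46.7 units at 9 weeks and 167.8, 161.2 and 133.1 at 5 months, a log2 change of 1.5 ± 0.36 (limma adjusted p = 0.0483). After quantile normalisation E2f1 missed the threshold (1.51, limma adjusted p = 0.0762). Hmgb2, a chromatin protein abundant in dividing cells, measured 79.2, 76.7 and 53 against 183.1, 196.2 and 161.5 units, a change of 1.39 ± 0.26 (limma adjusted p = 0.0292). Both were dim, and with the floor at 127.8 units their changes were 0.26 and 0.49. Unlike Mki67, neither was highest in the mouse with shaft genes at 9 weeks. Mki67 and Top2a, the topoisomerase of dividing cells, were not called, with changes of 0.43 and 0.33.

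The other genes of greatest increase came from varied functions. Aadac, a lipid-handling esterase, measured 17.7, 72.7 and 114.9 units at 9 weeks and 273.5, 248.8 and 273.4 at 5 months, a log2 change of 2.03 ± 0.4 (limma adjusted p = 0.0292). Limk1, a kinase that stabilises actin filaments, measured 446.8, 708.3 and 569.1 against 1595.4, 1356.3 and 2419 units, a change of 1.62 ± 0.32 (limma adjusted p = 0.0292). Its other probe set changed by -0.66 (limma adjusted p = 0.569), so the probe sets of Limk1 disagreed. With the floor at 127.8 units, Aadac changed by 1.05. Cap1, another actin regulator, changed by 1.58 (limma adjusted p = 0.0487), with 283.5, 85.6 and 107.1 units at 9 weeks and 376.1, 379.7 and 491.1 at 5 months. Cap1 was called in 9 of the 25 alternatives and missed the threshold after quantile normalisation (1.49, limma adjusted p = 0.0525). Hnrnpc, an RNA-binding protein of the nucleus, changed by 1.56, with 69.3, 150.5 and 109.6 against 326.1, 357.5 and 252.9 units. Abi1, a regulator of actin branching, changed by 1.8, but its 9 week arrays (33.8, 28.4 and 29.9 units) lay at or near the floor, and with the floor at 127.8 units its change was 0.14 (limma adjusted p = 0.456).

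Epcam, an adhesion protein of epithelia, was the called gene among 12 of a list of other organs and is made by the skin's own follicles and Langerhans cells. It measured 206.3, 193.4 and 204.5 units at 9 weeks and 451.6, 509.9 and 430.7 at 5 months, a log2 change of 1.2 ± 0.18 (limma adjusted p = 0.0169). At 1 year it ranged from 166.2 to 209 units, so that the 5 month arrays stood apart from both other adult ages. They did not stand above the young ages, with 432.2 to 467.2 units on day 23 and 579.4 to 741.8 on day 17. Hspa1b, a stress-induced chaperone, was the called gene among 34 of heat shock and chaperones, at 0.69 ± 0.17 (limma adjusted p = 0.0488). It made up 2.94% of that list, beside 2.37% called higher among all probe sets. In the proteasome list of 30, Psmd14 of the regulatory lid rose (0.67) and Psmb2 of the core fell (-0.56). After quantile normalisation Psmd14 missed the threshold (0.6, limma adjusted p = 0.0509).

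The greatest decreases after Thrsp included genes of vessels and nerve signals. Nos3, the endothelial nitric oxide synthase, measured 294.4, 260.8 and 208.1 units at 9 weeks and 28.6, 21.6 and 40.9 at 5 months, a log2 change of -2.84 ± 0.53 (limma adjusted p = 0.0292). It was the called gene among 28 of the endothelium list (3.57%, median -0.21), beside 1.94% called lower among all probe sets. The endothelial markers Pecam1, Cdh5 and Kdr were not called, with changes of -0.2, 0.52 and 0.78. Hcrt, the neuropeptide orexin, measured 307, 114.5 and 231.2 against 31, 31.8 and 35.2 units, a change of -2.58 ± 0.36 (limma adjusted p = 0.0169). In both genes 2 of the 3 arrays of 5 months were under the floor and were set to it. With the floor at 127.8 units the changes were -0.98 for Nos3 and -0.71 for Hcrt (limma adjusted p = 0.0231 and 0.161).

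Abhd8, a hydrolase-like protein, measured 239.7, 356.1 and 324.3 units at 9 weeks and 84.5, 43.5 and 77.2 at 5 months, a log2 change of -2.2 ± 0.29 (limma adjusted p = 0.0169), with 279.9 to 386.4 units at 1 year. Its other probe set changed by -0.34 (limma adjusted p = 0.715). Spock2, a proteoglycan of the matrix, measured 1141.3, 882.8 and 575.6 against 274.8, 242.7 and 179.6 units, a change of -1.87 ± 0.37 (limma adjusted p = 0.0292), with 150.9 to 413.5 units at 1 year. The 1 year arrays of Abhd8 lay with those of 9 weeks and the 1 year arrays of Spock2 with those of 5 months. Utp14a, needed for ribosome assembly, changed by -1.78, with 172.4, 354.8 and 292.3 against 96.5, 90.4 and 50.8 units. With the floor at 127.8 units, Abhd8 changed by -1.24 and Utp14a by -1.03, the latter no longer called (limma adjusted p = 0.0938). Eya3, a phosphatase and transcription cofactor, Mpp7, a polarity scaffold, and Nmur1, a receptor for the peptide neuromedin U, changed by -2.16, -2 and -1.86. Their 5 month arrays were dim (26.5 to 77.6 units), and with the floor at 127.8 units the changes were -0.48, -0.5 and -0.25.

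**Figure D4:**
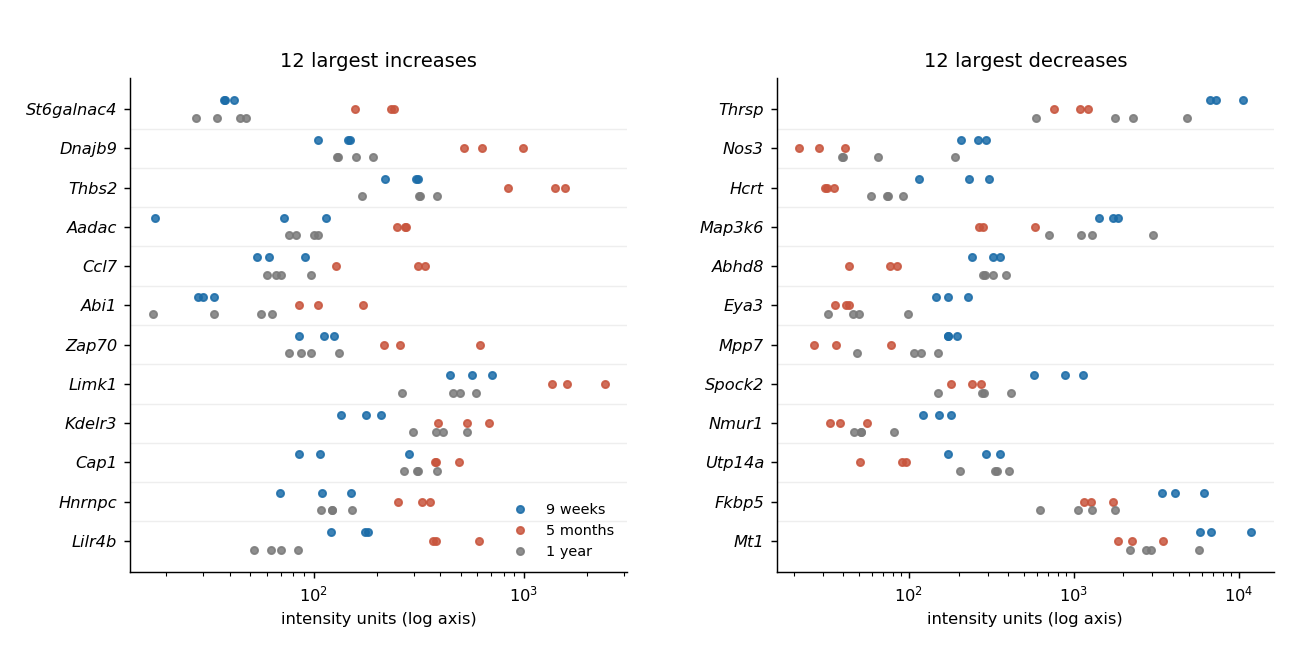
Intensity (units, log axis) of the 12 genes with the greatest increases (left) and decreases (right) among called genes; each point is 1 array of 9 weeks (3), 5 months (3) or 1 year (4). The 9 week and 5 month points do not overlap for any of the 24 genes, while the 1 year points lie with either age, between them or outside both.

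Phlda3, a p53 target, fell from 2035, 2337.9 and 2310 units to 1562.7, 1433.8 and 1409.7, a log2 change of -0.6 ± 0.14 (limma adjusted p = 0.0415), as the called gene among 28. In lists with 1 called gene, that gene made up 1.92% (dermal collagen and matrix) to 8.33% (other organs) of those tested. Among all genes tested, 4.4% were called. In all, 47 of the called genes belonged to a list, 17 of them higher and 30 lower. In another 11 list genes a dimmer probe set was called while the brightest, which the counts use, was not. Of these, Ptprc, Cxcl12, Col3a1, Tapbp and Itgb1 were higher by that probe set, and Zbtb16, Lcn2, Fbln1, Dnajc3, Ces1d and Dlst lower. The brightest probe sets of Lcn2 (0.54), Dnajc3 (0.64) and Tapbp (-0.05) changed the other way. Those of the rest kept the direction, with only 0.06 for Col3a1 and 0.16 for Cxcl12. By the brightest probe set no gene was called in the lists of follicle signals, bulge and hair germ, dermal papilla, basal keratinocytes, cholesterol synthesis, mast cells, nerve and Schwann cells, red blood cells, immediate early genes, the Wnt pathway, the TGF-beta and BMP pathway or the insulin-like growth factor axis. Bulge and hair germ genes had a median of 0.33, with 7 of 22 higher without overlap (16.5% of all probe sets) and none lower. Ctnnb1, the Wnt effector beta-catenin, measured 3066.3, 3185.7 and 3810.1 units at 9 weeks and 4745.8, 5074.9 and 4627.6 at 5 months without overlap (change 0.53, limma adjusted p = 0.116), and passed after quantile normalisation (0.68, limma adjusted p = 0.0449). Hba-a1, an alpha globin of red blood cells, measured 3397.2, 3067.2 and 4110.8 against 2069.8, 2826.9 and 2178.2 units (change -0.58, limma adjusted p = 0.0746).

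**Figure D5:**
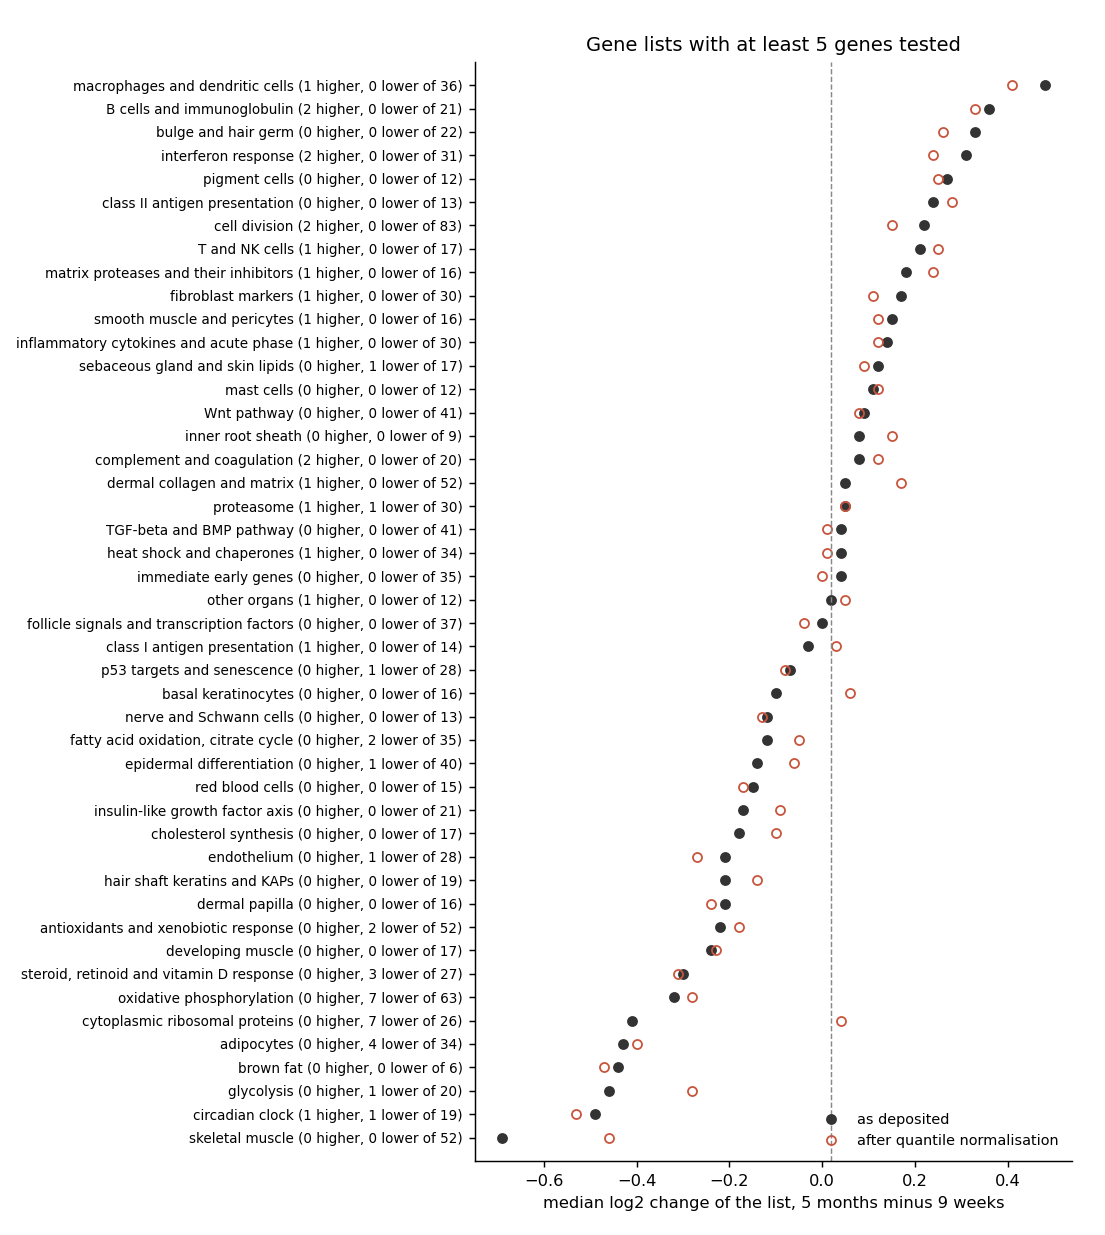
Median log2 change (5 months minus 9 weeks) of each gene list with at least 5 genes tested, as deposited (filled) and after quantile normalisation (open); the number of genes called higher and lower of those tested stands beside each name, and the dashed line is the median of all genes tested (0.02). The medians run from -0.69 (skeletal muscle) to 0.48 (macrophages and dendritic cells), and the ribosomal list moves from -0.41 to 0.04.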

How the data were processed

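Total RNA of whole back skin was measured on 25 arrays, and 6 of them are compared here. The authors deposited 1 intensity per probe set and array on a linear scale, with software that stays unstated in the labels. The values show that the authors had scaled the arrays, since the mean without the lowest and highest 2% lay between 500.23 and 500.36. Replicates are separate mice by label.

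Intensities under the 20th percentile of the table (32.7 units) were set to it and log2 taken. To be tested, a probe set had to exceed 127.8 units (the 40th percentile) on 3 or more arrays. The platform's annotation gave 1 symbol to 10833 probe sets, several to 396 and none to 1193; 10817 symbols matched the GRCm38.p6 gene table. The brightest probe set on average stands for its gene. The fit used limma 3.58.1 (R 4.3.3) with the trend option of its empirical Bayes step, and was checked on simulated data.

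Named are the 12 greatest increases and decreases among called genes without overlap, up to 4 called members of each of the 47 lists (or 3 of highest mean where none was called), 16 hair cycle genes and 2 sex markers where measured, and cell type markers. Members and lists were chosen with earlier results of these data known. RefSeq promoters existed for 106 of 127 named genes.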

Additional observations from a re-analysis of the deposited data

How the results depend on the processing

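Against 380 probe sets called (209 higher, 171 lower) and 47 called list genes, limma gave other counts under these settings. Centring the arrays gave 116 higher, and a floor at the 40th percentile 320 higher. Without the filter 111 were lower and 18 list genes called. Without the intensity trend 213 were called, 124 higher and 89 lower, with 21 list genes. Array weights gave 1339, 751 higher and 588 lower, with 200 list genes. All 25 arrays in 1 fit gave 1517, 897 higher and 620 lower, with 208 list genes. The 6 arrays alone gave 77 list genes, and the hair shaft covariate 78. The cause was not tested. Leaving out 1 mouse in turn gave 2 to 669 called, 0 to 349 higher, 2 to 320 lower and 0 to 97 list genes, with fewer arrays in each fit. The difference in hair shaft mean between the ages, -0.15 on the log2 scale, ranged from -1.62 to 1.53 when 1 mouse was left out.

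With the mouse number as a replicate block, limma called 0 (0 higher, 0 lower, 0 list genes) in the fit of 6 arrays and 0 in that of 3 ages, with 1770 and 1671 at an unadjusted p under 0.05. Deviations of mice with the same number correlated at 0.144, -0.312 and -0.352. Those of the mice with shaft genes, mouse 3 at 9 weeks and mouse 2 at 5 months, correlated at 0.529. Mice 2 and 3 differed in hair state between the ages, so these values cannot show whether the numbers paired the mice.

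Of 58 called named genes, quantile normalisation kept 46. Rpl41 went to 0 there. No other called named gene changed direction in any alternative.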

Other observations

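The smallest adjusted p of the comparison belonged to a probe set left unnamed here (limma adjusted p = 0.00371, log2 change -2.17). The named gene with the smallest was Tle5, a corepressor related to the Groucho family, with a log2 change of -1.28 ± 0.13 (limma adjusted p = 0.00443). Tle5 was chosen after its values were seen.

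Across the ages, the array of mouse 3 at 9 weeks correlated most with that of mouse 2 at 5 months (Pearson r = 0.938 over probe sets), the other mouse with hair shaft genes, and at 0.897 and 0.922 with the other mice of its own age. Genes are not independent replicates, and no p is given.

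Of the called genes, 54 had several probe sets tested. In 2 of them a second probe set was called in the same direction, and in 19 a second probe set had a change of opposite sign.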
